A study of Rattus norvegicus with 18 samples.

Results

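Transcripts of 8 genes of cytotoxic granules and natural killer (NK) cells were followed in bone repairing around printed scaffolds: Prf1, Gzma, Gzmb, Gzmk, Nkg7, Klrd1, Klrb1a and Ncr1. They were chosen by name from the deposited table of read counts, where 8 of 8 were present among 17337 genes, and all 8 passed the filter on low counts that left 11814 genes to test. The tissue came from wild-type rats (strain and age not stated) in which a critical-size gap in the radius was filled with a scaffold of polycaprolactone (PCL), of PCL with calcium phosphate microparticles (CaP), or of PCL with nanoparticles that combine amorphous calcium phosphate with chitosan (the ACPC-NP group). All groups therefore carried PCL, and the PCL group had no added mineral. Marrow was treated with red cell lysis buffer and digested with collagenase IV, dispase and DNase, bone was minced and digested with collagenase I, and the freed cells were pooled for polyadenylated RNA. Each scaffold at week 2 and at week 6 has 3 libraries, 18 in all, and the labels do not say whether these came from separate animals, so that p-values measure the spread between libraries, which may be technical in part. There was no group without a scaffold, so the values around PCL serve as the reference.

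Killer lymphocytes, which are NK cells and cytotoxic T cells, store perforin and granzymes in secretory granules and release them onto a target cell. Perforin opens the target's membrane, granzymes cleave proteins inside it, and paired activating and inhibitory receptors on the killer cell decide whether it fires. In marrow these cells are a small share of a mass of myeloid and erythroid precursors. In bulk RNA, fewer cells of a type and less RNA per cell cannot be told apart.

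Levels are CPM, that is counts scaled to a common library size, after correction for library composition with edgeR, and are given for replicates 1, 2 and 3 in that order. They are not divided by gene length and are compared between groups for each gene, not between genes. Differences are log2 fold changes ± standard error from edgeR, and a gene is called when its p-value, adjusted by Benjamini-Hochberg over the 11814 genes, is under 0.05. Total counts were 18880604 to 27186587 per library. Replicate 3 of ACPC-NP at week 2 stood apart from the other 17 libraries: Fth1, the ferritin heavy chain, took 3.51% of its counts against 0.129% to 0.467% elsewhere, and its summed level of 9 immediate early genes, which respond to tissue digestion among other stimuli, was 12044 CPM against at most 3646 CPM. The members' differences in which it takes part are given with and without it where leaving it out moved them by over 1.5 times. Of the osteoblast genes 6 of 6 were tested, with a summed level of 4693 to 26288 CPM. That sum was weighted to Col1a1, at 102355 to 643110 counts per library, against 18 to 180 for Sp7. Ptprc, the common leukocyte antigen CD45, was at 699.7 to 1307 CPM.

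No member was called in any of the 13 comparisons of scaffolds and weeks. The lowest levels of Prf1 and Gzma were around PCL at week 2, and both genes were higher there by week 6. Prf1, Gzma and Ncr1 were higher around ACPC-NP than around PCL at week 2 with adjusted p just above the threshold. Without replicate 3 of ACPC-NP the log2 differences fell from 1.84, 2.35 and 2.97 to 1.22, 1.71 and 0.97. The edgeR adjusted p was then 0.293, 0.367 and 0.754, and that library carried most of the Ncr1 difference. Nkg7 varied with neutrophil granule genes rather than with the other 7 members.

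Promoter sequences are shown for 4 members because their levels went with different partner genes across the libraries: Prf1 and Gzma with each other, Gzmk with the chemokine Ccl5, and Nkg7 with myeloperoxidase. RefSeq, assembly GRCr8, held an entry for 6 of the 8 members and none for Klrd1 and Ncr1. Each run below is the 250 bases before the start site, read 5′ to 3′ on the gene's strand, at chr20:29788790-29789039 (plus strand) for Prf1, chr2:46485697-46485946 (minus strand) for Gzma, chr2:46582016-46582265 (minus strand) for Gzmk and chr1:102981247-102981496 (plus strand) for Nkg7. Capitals mark matches, on either strand, to any of 5 short motifs searched, which are named after the factors that bind such letters.
Prf1: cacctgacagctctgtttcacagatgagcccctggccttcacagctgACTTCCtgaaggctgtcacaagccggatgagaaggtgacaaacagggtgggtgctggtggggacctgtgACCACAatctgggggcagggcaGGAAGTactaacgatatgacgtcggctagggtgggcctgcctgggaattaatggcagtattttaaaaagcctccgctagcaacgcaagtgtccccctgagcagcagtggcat
Gzma: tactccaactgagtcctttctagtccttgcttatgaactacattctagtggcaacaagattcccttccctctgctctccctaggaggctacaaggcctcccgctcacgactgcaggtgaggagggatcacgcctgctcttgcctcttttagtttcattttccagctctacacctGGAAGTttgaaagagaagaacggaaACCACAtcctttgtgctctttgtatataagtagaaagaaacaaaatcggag
Gzmk: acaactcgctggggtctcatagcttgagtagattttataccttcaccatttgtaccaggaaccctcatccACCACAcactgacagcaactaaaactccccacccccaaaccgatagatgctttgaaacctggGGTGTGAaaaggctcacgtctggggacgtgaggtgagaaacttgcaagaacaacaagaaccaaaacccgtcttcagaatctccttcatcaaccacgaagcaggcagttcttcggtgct
Nkg7: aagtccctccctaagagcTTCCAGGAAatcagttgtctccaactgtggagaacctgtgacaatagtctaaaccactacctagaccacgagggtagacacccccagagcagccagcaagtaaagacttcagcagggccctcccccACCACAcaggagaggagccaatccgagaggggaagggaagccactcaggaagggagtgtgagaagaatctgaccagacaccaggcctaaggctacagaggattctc

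The motifs were GGTGTGA (T-box), TGTGGT (RUNX), TTCNNNGAA (STAT), TTGCNNAA (C/EBP) and GGAAGT (ETS), searched in the 300 bases that RefSeq's table gives per promoter, of which the last 50 follow the start site. A match was present in 3.83%, 17.3%, 8.87%, 10.6% and 22.6% of 33469 promoters, in that order. The Prf1 promoter held a RUNX match at -134 and ETS matches at -203 and -112 from the start site, and the Gzma promoter a RUNX match at -51 and an ETS match at -76. Both motifs together were present in 4.01% of promoters. The Gzmk promoter held a T-box match at -118 and a RUNX match at -180. Nkg7 had a RUNX match at -106 and a STAT match at -232, Gzmb 3 RUNX matches and 1 STAT match, and Klrb1a 1 ETS match. These are matches of letters only, and none of the 6 promoters had a C/EBP match in this window.

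Perforin is encoded by Prf1. Around PCL at week 2 its level was 2.99, 3.52 and 2.50 CPM. Around CaP at week 2 it was 5.18, 8.11 and 5.09 CPM, and around ACPC-NP 6.42, 7.73 and 18.3 CPM. The 3 PCL libraries were below every library of both mineral scaffolds at that week, and replicate 3 of ACPC-NP was the highest of all. At week 6 the level was 8.45, 6.21 and 10.4 CPM around PCL, 9.004, 8.49 and 6.64 CPM around CaP, and 5.64, 8.67 and 7.60 CPM around ACPC-NP. The ranges of the 3 scaffolds overlapped at week 6. Ordered by their means the 6 groups ran from PCL at week 2 (3.00 ± 0.513 CPM, SD, n = 3) to ACPC-NP at week 2 (10.8 ± 6.52 CPM), and of the 5 steps between neighbours in this order only the lowest separated groups whose ranges did not overlap.

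A pattern noticed once the values were seen was that the 3 PCL libraries of week 2 were the lowest of all 18 for Prf1, with at most 3.52 CPM against at least 5.09 CPM in the other 15. Per 1000 counts of Ptprc the same 3 libraries had at most 4.16 Prf1 counts and the others at least 6.10. Per 1000 summed counts of 15 T cell markers they had at most 17.2 and the others at least 25.7. The gap was present relative to Ptprc and to this sum as well as to all RNA. These ratios reuse the Prf1 values by which the libraries were picked, so they are no further support. The sum was weighted to Cd4, at 910 to 2418 counts per library, against 124 to 416 for Cd3e, so it does not measure T cell number. For none of the other 7 members were the PCL libraries of week 2 all below the other 15.

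Granzyme A, from Gzma, is a tryptase of killer cell granules, and it was scarce here, with 7 to 76 counts per library. At week 2 its level was 0.383, 0.554 and 0.291 CPM around PCL, 1.07, 1.21 and 0.868 CPM around CaP, and 0.984, 1.74 and 3.71 CPM around ACPC-NP. Again the PCL libraries were below all 6 libraries of the mineral scaffolds. At week 6 the order was turned round, with 2.25, 1.78 and 3.23 CPM around PCL, 1.98, 1.22 and 1.47 CPM around CaP, and 1.03, 1.08 and 0.521 CPM around ACPC-NP. Every ACPC-NP library then lay below every library of PCL and of CaP. With the groups ordered by mean (PCL at week 2, ACPC-NP at week 6, CaP at week 2, CaP at week 6, ACPC-NP at week 2, PCL at week 6), only CaP at week 2 and CaP at week 6 were neighbours without overlap, at no more than 1.21 and no less than 1.22 CPM.

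Granzyme B, the aspartate-cutting protease that starts apoptosis in the target, had another pattern. Gzmb was lowest in replicate 2 of CaP at week 2, at 1.71 CPM, and in replicate 1 of ACPC-NP at week 6, at 2.26 CPM, and highest in replicates 3 and 2 of CaP at week 6, at 14.99 and 12.6 CPM. Its group means were 5.32 to 11.05 CPM, and no 2 groups compared had separate ranges. Rats carry several close copies of this gene, and how reads that match several copies were counted is not known here. Of 5 other granule enzymes in the table, Gzmc, Gzmf and Gzmn had too few counts to test.

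Granzyme K, from Gzmk, marks a subset of T cells as well as NK cells. It ranged from 2.87 CPM in replicate 1 of PCL at week 2 to 9.83 CPM in replicate 2 of CaP at week 2, and its highest group mean was 7.31 ± 1.95 CPM (SD, n = 3) around PCL at week 6. Its ranges overlapped in every comparison of 2 groups. The gene lies beside Gzma in the RefSeq order, yet the correlation of their log2 CPM over the 18 libraries was only 0.42 (Pearson r), and 0.08 once group means were removed.

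Nkg7 encodes a membrane protein of the cytotoxic granule that is also used as an NK and T cell marker. It had 1123 to 4640 counts per library. Around ACPC-NP its level was 83.0, 78.0 and 63.0 CPM at week 2 and 195, 151 and 102 CPM at week 6. All 3 libraries of week 6 were above all 3 of week 2. Around PCL it was 129, 88.2 and 113 CPM at week 2 and 189, 61.4 and 78.7 CPM at week 6, and around CaP 154, 115 and 81.7 CPM and then 84.7, 104 and 106 CPM. Replicate 1 of PCL at week 6 stood far above the other libraries of its group, which were among the lowest of the 18.

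Among the receptors, Klrd1 encodes CD94, the partner chain of the NKG2 receptors. It ranged from 1.79 CPM (PCL at week 2, replicate 3) to 6.35 CPM (ACPC-NP at week 6, replicate 3), with group means of 2.93 ± 1.31 CPM around PCL at week 2 and 4.20 to 4.97 CPM in the other 5 groups. No 2 groups compared had separate ranges. Klrb1a, of the NKR-P1 family of lectin-like receptors, was near the limit of detection, with 5 to 24 counts per library (0.192 to 1.08 CPM) and overlapping ranges throughout. It too has close relatives among which reads may be split, and Klrb1b, of the same family, was listed at 0 in all 18 libraries.

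Ncr1 encodes NKp46, an activating receptor used to define NK cells. Around ACPC-NP at week 2 its level was 4.76, 8.01 and 63.7 CPM, the last being the library that stood apart, and it was at most 8.08 CPM in the other 17 libraries. Around PCL it was 3.03, 4.75 and 1.92 CPM at week 2 and 8.08, 4.63 and 7.39 CPM at week 6. Around CaP it was 6.66, 4.60 and 3.47 CPM and then 4.90, 4.83 and 7.26 CPM, and around ACPC-NP at week 6 4.66, 4.42 and 7.44 CPM. Apart from that library, all values lay within 1.92 to 8.08 CPM. All 3 ACPC-NP libraries were above the 3 PCL libraries at week 2, though the lowest of the former, at 4.76 CPM, exceeded the highest of the latter by little.

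**Figure D1:**
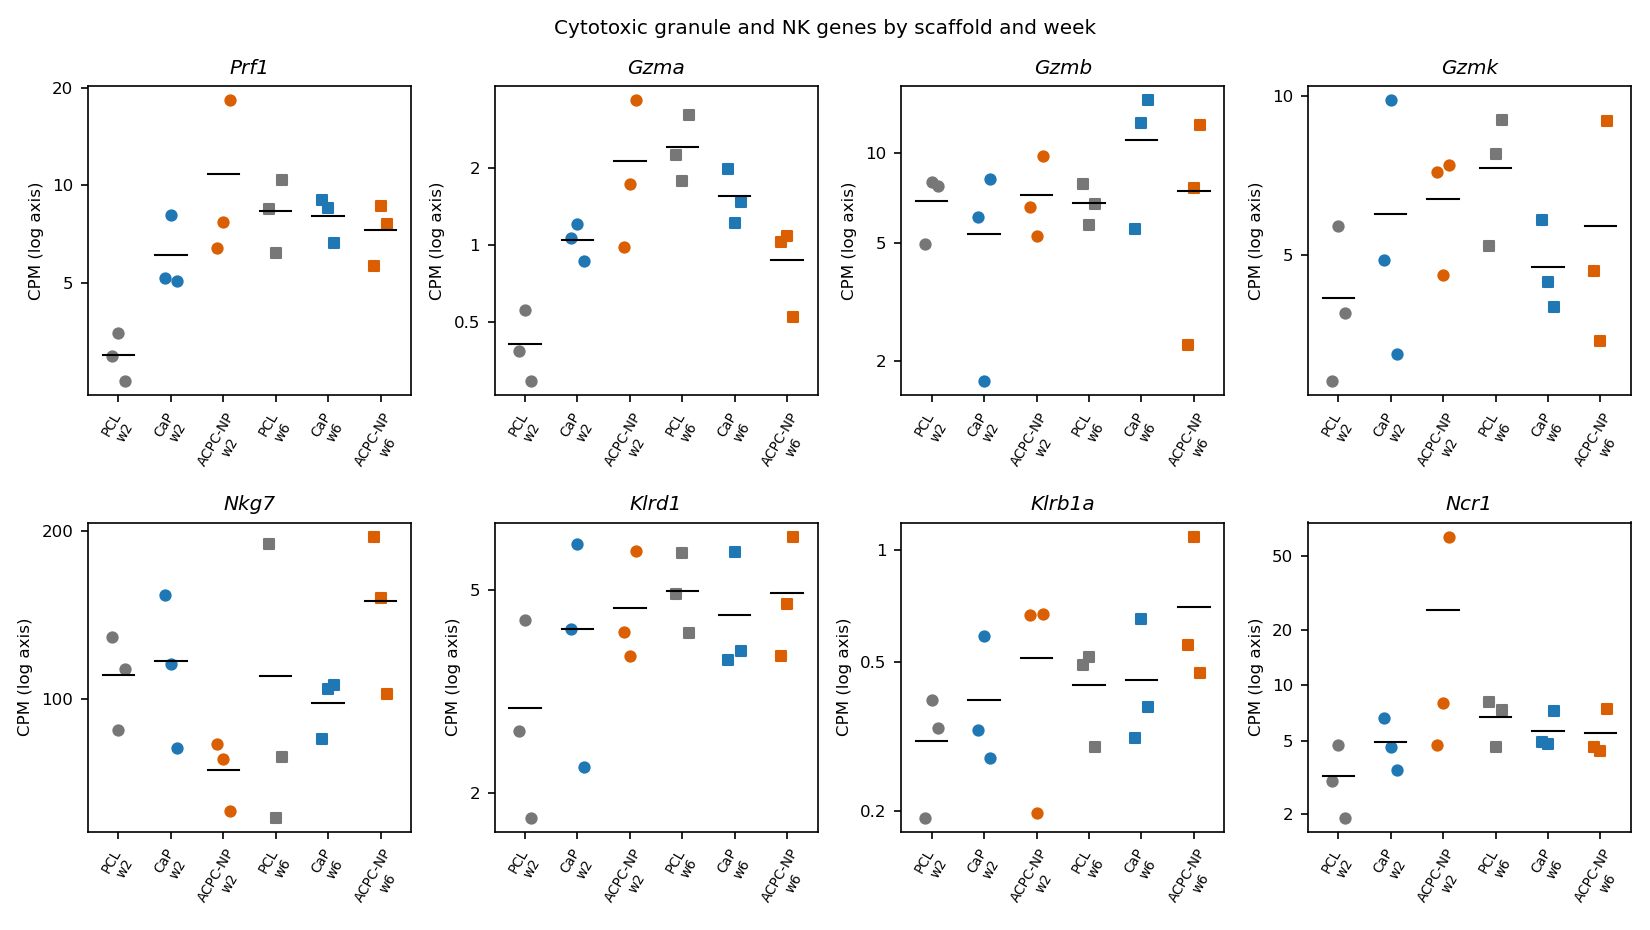
CPM (log axis) of the 8 genes in each of 18 libraries, grouped by scaffold and week (w2, w6), with points for libraries and bars for the mean of 3. Prf1 and Gzma are lowest around PCL at week 2, and 1 ACPC-NP library of week 2 is at 63.7 CPM for Ncr1.

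Libraries of ACPC-NP were set against those of PCL at week 2, which asks what the nanoparticles change early. EdgeR called 0 of 8 members, as it called 0% of the 11814 genes. The log2 difference was above 0 for 7 of 8 members (47.9% of all genes), with a median of 0.68 against -0.01. It was above 0 for 6 of 8 with a median of 0.49 without replicate 3 of ACPC-NP. The 47.9% is from the fit with all libraries, so it is no background for that last count. At an unadjusted p under 0.05, 3 members were higher, Prf1, Gzma and Ncr1, and 0 lower, where 12.3% of all genes were higher. Prf1 stood at 10.8 ± 6.52 against 3.00 ± 0.513 CPM (SD, n = 3 each), a difference of 1.84 ± 0.36 (edgeR adjusted p = 0.0712). Gzma stood at 2.14 ± 1.41 against 0.410 ± 0.133 CPM, a difference of 2.35 ± 0.48 (edgeR adjusted p = 0.0712). Ncr1 differed by 2.97 ± 0.74 (edgeR adjusted p = 0.0846). The ranges of these 3 genes did not overlap, with ACPC-NP higher, as for 9.56% of all genes. Nor did those of Nkg7, with ACPC-NP lower, as for 7.4% of all genes, at a difference of -0.56 ± 0.35 (edgeR adjusted p = 0.476).

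Without replicate 3 of ACPC-NP the differences were 1.22 for Prf1, 1.71 for Gzma and 0.97 for Ncr1 (edgeR adjusted p = 0.293, 0.367 and 0.754), and 0 members and 0% of genes were called. DESeq2 on all libraries called the 3 genes (adjusted p = 0.000147, 0.000598 and 0.00108), where it called 4.32% of 14616 genes. Voom, which lowers the weight of libraries that stand apart, called Prf1 and Gzma at 1.41 and 2.08 (adjusted p = 0.0294 and 0.0259) and not Ncr1 (adjusted p = 0.0567), and called 2.38% of genes. Most markers of T cells moved in the same direction: 14 of 15 were above 0, with a median of 0.71 (0.49 without replicate 3). At an unadjusted p under 0.05, 6 were higher and 1 lower, where 12.3% of all genes were higher. Without replicate 3 these were 2 and 1. The markers' summed level was 234 to 297 CPM around ACPC-NP and 173 to 223 CPM around PCL, with none of the 15 listed at 0 throughout. Ptprc differed by 0.27 ± 0.18. Summed neutrophil markers were lower, as was Nkg7, at 20072 to 21268 CPM around ACPC-NP and 23563 to 27472 CPM around PCL. The neutrophil sum was weighted to S100a9, at 131046 to 336760 counts per library, against 9379 to 57429 for Mpo. Summed B cell markers were also lower (865 to 1095 against 1394 to 1485 CPM), as were plasmacytoid dendritic cell markers (1018 to 1087 against 1277 to 1501 CPM). The last sum was weighted to Spib, at 12888 to 40545 counts per library, against 499 to 1177 for Tcf4 and 24 to 66 for Ccr9. The part of T cell number in the Prf1 and Gzma differences was not tested.

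**Figure D2:**
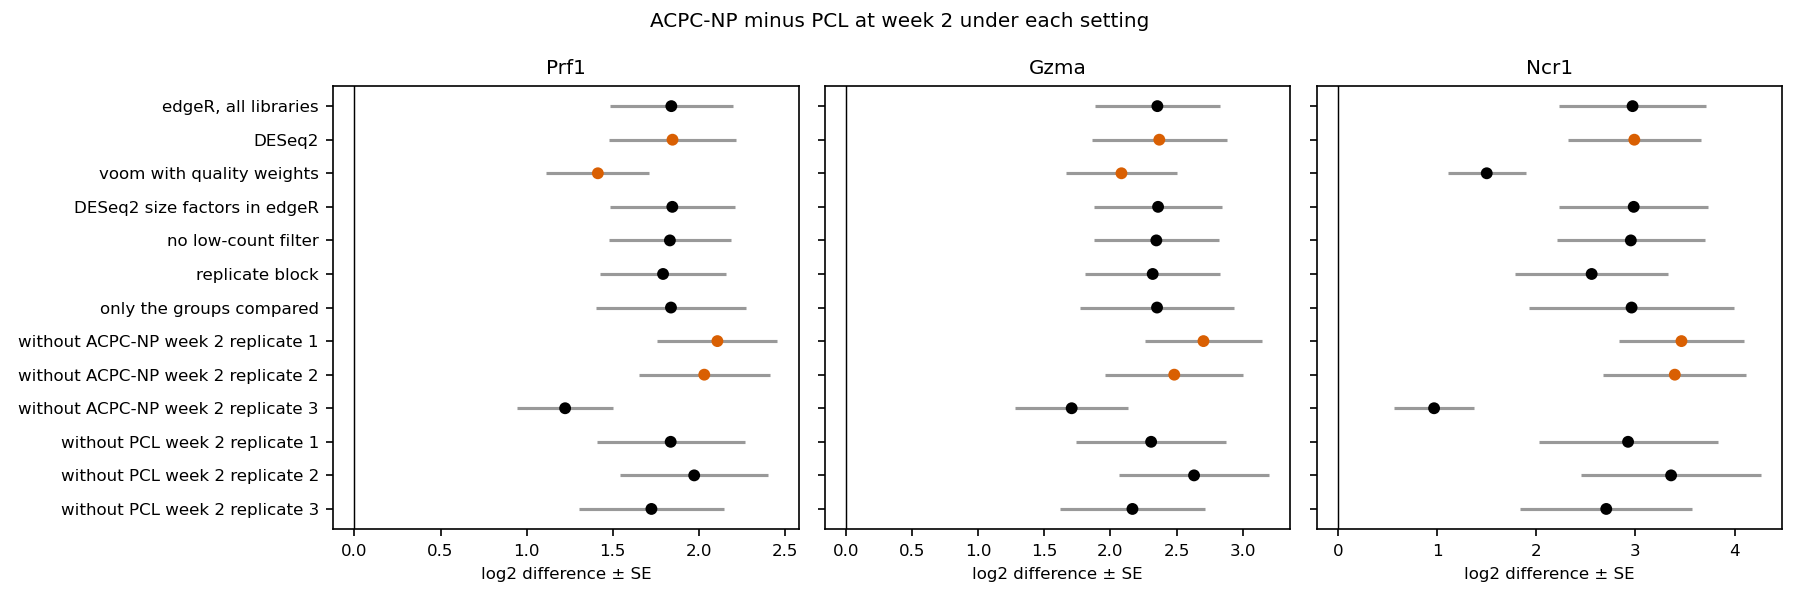
Log2 difference ± SE between ACPC-NP and PCL at week 2 for Prf1, Gzma and Ncr1 under each setting, with orange points where the adjusted p was under 0.05 and a vertical line at 0. Without ACPC-NP replicate 3 the Ncr1 difference is 0.97, against 2.97 with all libraries.

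CaP against PCL at week 2 asks what the microparticles do, and shares its PCL libraries with the comparison above. EdgeR called 0 of 8 members and 0% of all genes. Prf1, at 6.13 ± 1.72 CPM around CaP, was higher by 1.03 ± 0.35 and Gzma, at 1.05 ± 0.173 CPM, by 1.34 ± 0.48 (edgeR adjusted p = 1.00 for both). These 2 members had an unadjusted p under 0.05 in the higher direction, which 1.08% of genes had. They were also the 2 members whose ranges did not overlap, with CaP higher, which held for 3.09% of genes. The difference was above 0 for 7 of 8 members (52.9% of genes), with a median of 0.52 against 0.01 for all genes. DESeq2 and voom called 0 members here. The side-by-side differences from PCL were thus 1.84 and 1.03 for Prf1, and 2.35 and 1.34 for Gzma, around ACPC-NP and CaP. The ACPC-NP values were 1.22 for Prf1 and 1.71 for Gzma when replicate 3 was left out.

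ACPC-NP and CaP were compared directly at week 2, and edgeR called 0 of 8 members and 0% of all genes. The ranges of all 8 members overlapped, where 16.5% of genes had separate ranges. Prf1, Gzma and Ncr1 were higher at an unadjusted p under 0.05, as were 11.6% of genes, by 0.81 ± 0.35, 1.01 ± 0.44 and 2.37 ± 0.72 (edgeR adjusted p = 0.268, 0.282 and 0.132). The difference was above 0 for 7 of 8 members (47% of genes), with a median of 0.39 against -0.02 for all genes. All of this moved without replicate 3 of ACPC-NP: the differences were 0.20, 0.37 and 0.38 for Prf1, Gzma and Ncr1. Then 5 of 8 members were above 0 with a median of 0.13, and 0 members reached an unadjusted p under 0.05. The shares of all genes above are from the fit with all libraries, so they are no background for these counts. With all libraries DESeq2 called Ncr1, among 4.07% of genes, and voom called 0 members.

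At week 6, Gzma was the only member with separate ranges in any comparison of scaffolds. In ACPC-NP against PCL edgeR called 0 of 8 members and 0% of all genes, and 1 member, Gzma, had an unadjusted p under 0.05 in the lower direction, as did 12.7% of genes. It stood at 0.876 ± 0.310 CPM around ACPC-NP and 2.42 ± 0.738 CPM around PCL (SD, n = 3), a difference of -1.45 ± 0.45 (edgeR adjusted p = 0.0972). Its ranges did not overlap, with ACPC-NP lower, which held for 14.2% of genes. The difference was above 0 for 3 of 8 members (49.2% of genes), with a median of -0.10. DESeq2 called it (adjusted p = 0.0385) among 6.04% of genes, and voom (adjusted p = 0.00495) among 34.2% of genes, together with Nkg7.

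Against CaP at week 6, Gzma differed by -0.82 ± 0.45 (edgeR adjusted p = 0.571) with separate ranges, ACPC-NP being lower, as for 12.5% of genes. EdgeR called 0 of 8 members and 0% of genes, and 0 members had an unadjusted p under 0.05 (9.34% of genes). The difference was above 0 for 4 of 8 members (50.3% of genes), with a median of 0.05. CaP against PCL at week 6 had 0 members called by edgeR, DESeq2 or voom, 0 at an unadjusted p under 0.05 (2.57% of genes) and 0 with separate ranges (8.9% of genes). EdgeR called 0% of genes there, and 2 of 8 members were above 0 (46.4% of genes), with a median of -0.16. The differences were -0.05 ± 0.34 for Prf1, -0.63 ± 0.43 for Gzma and 0.71 ± 0.56 for Gzmb.

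Time was read within each scaffold. Around PCL, week 6 against week 2, edgeR called 0 of 8 members and 0% of all genes. Gzma was higher by 2.54 ± 0.47, at 2.42 ± 0.738 against 0.410 ± 0.133 CPM, and Prf1 by 1.47 ± 0.35, at 8.34 ± 2.07 against 3.00 ± 0.513 CPM (edgeR adjusted p = 0.195 and 0.391). They were the 2 members at an unadjusted p under 0.05 in the higher direction (5.97% of genes), and the 2 with separate ranges, week 6 being higher (7.76% of genes). The difference was above 0 for 6 of 8 members (50.6% of genes). DESeq2 called both among 0.198% of genes, and voom both among 14.7%. In this comparison 13 of 15 T cell markers were above 0, with a median of 0.38 against 0.79 for the 8 members and 0.00 for all genes. Of these markers 2 were higher and 1 lower at an unadjusted p under 0.05. Their part in the Prf1 and Gzma differences was not tested. The comparison uses the PCL libraries of week 2 that served above, so it does not stand apart from those results.

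Around ACPC-NP, week 6 against week 2, edgeR called 0 of 8 members, and 0.00846% of all genes. Nkg7 was higher by 1.00 ± 0.36, at 150 ± 46.5 against 74.7 ± 10.4 CPM (edgeR adjusted p = 0.152), and was the 1 member with separate ranges, week 6 being higher, as for 9.23% of genes. The difference was above 0 for 4 of 8 members (45.2% of genes), with a median of -0.06. It was also the 1 member with an unadjusted p under 0.05 in the higher direction (7.3% of genes), while Gzma and Ncr1 had one in the lower direction (12.5% of genes). These were differences of -1.26 ± 0.45 and -2.21 ± 0.72 (edgeR adjusted p = 0.151 and 0.129). Leaving out replicate 3 of week 2 gave -0.60 and -0.20. Then 0 members had an unadjusted p under 0.05 in the lower direction, and 5 of 8 were above 0 with a median of 0.20, while Nkg7 was at 0.92. The shares of all genes above are from the fit with all libraries, so they are no background for these counts. Neutrophil markers moved with Nkg7: 8 of 8 were above 0 with a median of 0.74, and their summed level was 20072 to 21268 CPM at week 2 and 26297 to 37678 CPM at week 6. None of the 8 was listed at 0 throughout, and their sum was weighted to S100a9 here too.

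Around CaP, week 6 against week 2, edgeR called 0 of 8 members and 0% of genes, and 0 members had an unadjusted p under 0.05 (4.82% of genes). Gzma was higher by 0.57 ± 0.44 (edgeR adjusted p = 0.953), with ranges that were just separate, week 6 being higher, as for 5.93% of genes. Here 6 of 8 members were above 0 (47% of genes), with a median of 0.19. Averaged over the 3 scaffolds with equal weight, week 6 differed from week 2 by 0.43 ± 0.20 for Prf1 and 0.62 ± 0.26 for Gzma (edgeR adjusted p = 0.335 and 0.298), or 0.65 and 0.84 without replicate 3 of ACPC-NP at week 2 (edgeR adjusted p = 0.0617 and 0.1001). EdgeR called 0 of 8 members there and 0.686% of genes, and these 2 were the members at an unadjusted p under 0.05 in the higher direction (6.67% of genes). Of the 8 members 7 were above 0 (44.5% of genes), with a median of 0.34.

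Whether a scaffold difference changed between the weeks was tested as an interaction. For ACPC-NP minus PCL, Gzma changed by -3.80 ± 0.65, the difference going from 2.35 at week 2 to -1.45 at week 6, with an unadjusted p of 3.38e-05 and an edgeR adjusted p of 0.278. Prf1 changed by -2.03 ± 0.49 and Ncr1 by -3.26 ± 1.01 (edgeR adjusted p = 0.278 for both). These 3 members had an unadjusted p under 0.05 in the lower direction, as did 9.37% of genes, and edgeR called 0 of 8 members and 0% of genes. The change was above 0 for 2 of 8 members (45.3% of genes), with a median of -0.83. Without replicate 3 of ACPC-NP at week 2 the values were -3.14, -1.40 and -1.24 (edgeR adjusted p = 0.331, 0.548 and 0.593). DESeq2 called Gzma and Prf1 among 0.889% of genes. Voom called these and also Ncr1 and Nkg7, among 16.3% of genes.

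For ACPC-NP minus CaP the change was -1.83 ± 0.63 for Gzma, 1.25 ± 0.50 for Nkg7 and -2.41 ± 1.00 for Ncr1 (edgeR adjusted p = 0.275, 0.316 and 0.328). EdgeR called 0 of 8 members and 0% of genes. Gzma and Ncr1 were the 2 members with an unadjusted p under 0.05 in the lower direction (8.08% of genes) and Nkg7 the 1 in the higher direction (6.09%). The change was above 0 for 4 of 8 members (48.2% of genes), with a median of -0.47. When replicate 3 of ACPC-NP at week 2 was left out, the change was -1.19 for Gzma, 1.15 for Nkg7 and -0.42 for Ncr1. The median was then -0.06, and 1 member had an unadjusted p under 0.05 in the lower direction. The 8.08% above is from the fit with all libraries, so it is no background for this count. For CaP minus PCL it was -1.08 ± 0.49 for Prf1 and -1.97 ± 0.64 for Gzma (edgeR adjusted p = 1.00 for both), with 0 of 8 members and 0% of genes called. These were the 2 members with an unadjusted p under 0.05 in the lower direction (1.2% of genes), and 1 of 8 members was above 0 (45.7% of genes), with a median of -0.76. All interactions with PCL share its 6 libraries.

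The members did not vary as a block. Over the 18 libraries Prf1 and Gzma had a Pearson r of 0.86 in log2 CPM (Spearman rho 0.81), and 0.76 after group means were removed. Prf1 and Ncr1 had an r of 0.78, Prf1 and Klrd1 0.68, and Gzmk and Klrd1 0.67. Gzmb had an r between -0.27 and 0.24 with each of the other 7. Nkg7 had an r between -0.39 and -0.11 with 6 of the other 7 and 0.16 with Klrb1a. These are descriptions over libraries that share tissue, groups and scaling, and they carry no test.

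Each member's closest genes among all tested, by Pearson r over 18 libraries, differed in kind. For Prf1 they were Il2rb, the chain shared by the receptors of interleukins 2 and 15 (r = 0.94, and 0.92 within groups), Gzma and Foxp3, the factor of regulatory T cells (0.84, but 0.40 within groups). For Gzma they were Prf1, the lectin-like NK receptor Klri2 (0.82) and Foxp3 (0.82, but 0.39 within groups). For Gzmk they were Ccl5, a chemokine that killer T cells store (0.91), granzyme M from Gzmm (0.86) and Faslg, the death ligand (0.80). For Klrd1 they were the killer lectin-like receptor Klre1 (0.84), its neighbour in the RefSeq order, the T cell signalling adaptor Lat (0.77) and Il2rb (0.75). For Klrb1a, at few counts, they were Fam220a, Zfp347 and its relative Klrb1c (0.88, 0.77 and 0.76). For Gzmb no gene passed 0.69, which Mdga1 reached, followed by Lcn5 at 0.63 and LOC691670 at 0.61.

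Nkg7 had as its closest genes Mpo, the myeloperoxidase of neutrophil primary granules (r = 0.99, and 0.98 within groups), the defensin Defa5 (0.97) and Ctsg, cathepsin G of the same granules (0.96). The Nkg7 count was 8.08% to 11.97% of the Mpo count in every library, a 1.48-fold range, while Mpo itself ran from 526.5 to 2345 CPM. In the comparisons the 2 genes had like values: ACPC-NP against PCL at week 2 gave -0.56 for Nkg7 and -0.68 ± 0.45 for Mpo, and week 6 against week 2 around ACPC-NP gave 1.00 and 1.25 ± 0.45. Which cells the Nkg7 reads came from was not tested.

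Ncr1 was closest to Fcar, the receptor for the tail of immunoglobulin A on myeloid cells (r = 0.94, and 0.76 without replicate 3 of ACPC-NP at week 2). Next were the myeloid inhibitory receptor Lilrb4 (0.91, and 0.82 without that library) and Ubxn4 (0.91, and 0.60 without it). Fcar is the neighbour of Ncr1 in the RefSeq order of GRCr8. It stood at 442 CPM in replicate 3 of ACPC-NP at week 2 and at no more than 60.5 CPM in the other 17 libraries. The Ncr1 count was 14.4% of the Fcar count in that library and 8.52% to 21.4% over all 18, with a median of 13.6%. For ACPC-NP against PCL at week 2 Fcar differed by 2.64 ± 0.68 (edgeR adjusted p = 0.0865), or 0.76 without that library, beside 2.97 and 0.97 for Ncr1. Whether reads of Fcar entered the Ncr1 count was not tested. Klrd1 and Prf1 in the same library were at 5.95 and 18.3 CPM, against at most 6.35 and 10.4 CPM in the other 17.

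**Figure D3:**
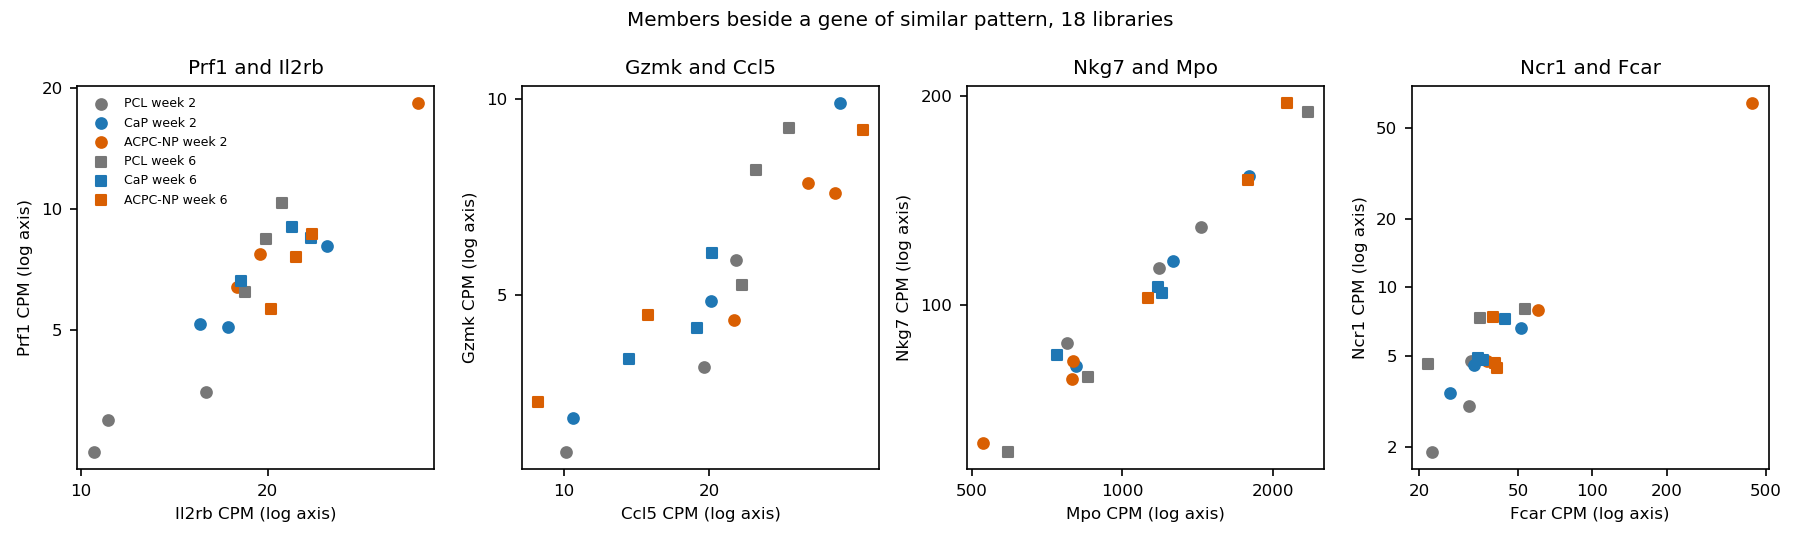
CPM (log axes) of Prf1, Gzmk, Nkg7 and Ncr1 against a gene of similar pattern in 18 libraries, with colour for scaffold and circles or squares for week 2 or 6. Nkg7 and Mpo lie close to a straight line from 526.5 to 2345 CPM of Mpo, and Ncr1 and Fcar are both far higher in 1 ACPC-NP library of week 2.

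The wider machinery was described with 75 genes in 8 lists by role, of which 63 were tested, 12 had too few counts and 5 of these were listed at 0 throughout. EdgeR called 0 of the 63 in all 13 comparisons. In ACPC-NP against PCL at week 2, 55 of 63 were above 0 (47.9% of all genes were), with a median of 0.53 against -0.01 for all genes, and 19 were higher at an unadjusted p under 0.05 (12.3% of all genes were) and 0 lower. With replicate 3 of ACPC-NP left out, 6 were higher at that p and 49 were above 0, with a median of 0.31. The 47.9% and 12.3% of all genes are from the fit with all libraries, so they are no background for these counts. DESeq2 called 8 of the wider genes and voom 4, where they called 4.32% and 2.38% of all genes.

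By role, 21 of 25 surface receptors were above 0 with a median of 0.56 (0.49 without replicate 3), and 4 of 4 trafficking receptors with 0.72 (0.67). Several surface receptors had few counts, such as Klrc1 at 4 to 12 and Klrb1 at 0 to 14 per library. Ly49i9, at 2.11 (2.64), had 11 to 30 counts in 7 libraries of different groups and 0 to 1 in the other 11. Of the cytokines and cytokine receptors 8 of 8 were above 0 with 0.49 (0.32), and of the death ligands and secreted effectors 3 of 4 with 0.70 (0.68). The genes for loading, storing and releasing granules had 7 of 10 above 0 and a median of 0.33, which was -0.14 without replicate 3, and the 6 transcription factors went from 1.16 to 0.26 and the 4 receptor adaptors from 0.85 to 0.28. The smallest unadjusted p-values among the wider genes were those of Il18, a cytokine that activates NK cells, at 14.8 ± 9.72 against 5.85 ± 0.867 CPM (1.33 ± 0.34, edgeR adjusted p = 0.0865), and Prdm1, the factor Blimp-1 of effector lymphocytes, at 42.6 ± 22.7 against 17.8 ± 5.76 CPM (1.25 ± 0.32, edgeR adjusted p = 0.0890). Without replicate 3 they were at 0.64 and 0.72.

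**Figure D4:**
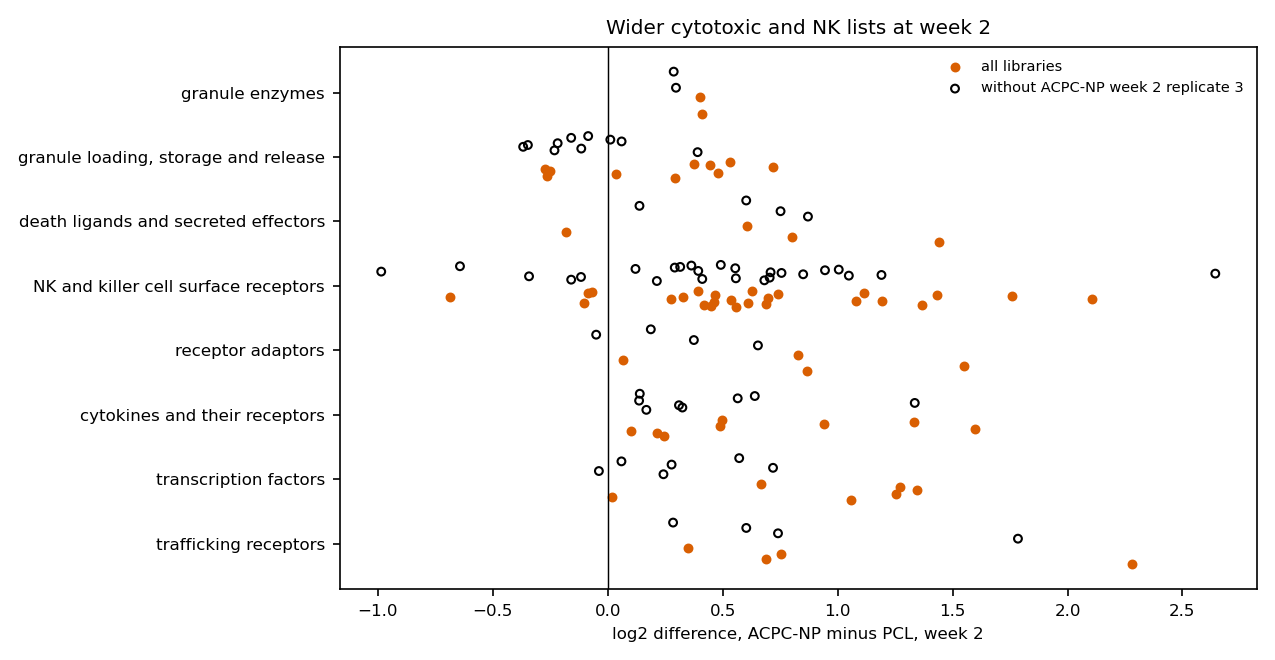
Log2 difference between ACPC-NP and PCL at week 2 for each of 63 tested genes in 8 lists by role, with all libraries (filled) and without ACPC-NP week 2 replicate 3 (open). Surface receptors have a median of 0.56 and 0.49, and genes of granule loading, storage and release 0.33 and -0.14. Several surface receptors have few counts, such as Klrc1 at 4 to 12 per library.

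In the other comparisons of scaffolds the wider genes had smaller medians. Against CaP at week 2, 45 of 63 were above 0 around ACPC-NP (47% of all genes) with a median of 0.23. Id2, a factor needed for NK cells and used in many other cells, differed by 1.34 ± 0.42, and Fcer1g, the Fc receptor chain that carries NK and myeloid receptors, by 1.495 ± 0.47 (edgeR adjusted p = 0.137 for both), or 0.27 and 0.33 without replicate 3. CaP against PCL at week 2 had 47 of 63 above 0 (52.9% of all genes) and a median of 0.26. Il2rb was at 0.62 ± 0.24 and the chemokine receptor Cxcr3 at 0.63 ± 0.28 (edgeR adjusted p = 1.00 for both).

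At week 6, ACPC-NP against PCL had 36 of 63 above 0 (49.2% of all genes) and a median of 0.14. Klrk1, the activating receptor NKG2D, stood at 22.4 ± 3.81 against 13.8 ± 3.71 CPM (0.69 ± 0.24, edgeR adjusted p = 0.128) and the Fc receptor Fcgr3a at 1.18 ± 0.47 (edgeR adjusted p = 0.161). Il2rg, the chain common to several interleukin receptors, stood at 108 ± 18.6 against 187 ± 54.7 CPM (-0.79 ± 0.25, edgeR adjusted p = 0.0997) and Il12rb2, of the interleukin 12 receptor, at -1.04 ± 0.37 (edgeR adjusted p = 0.129). These calls changed with the setting: with a replicate block in edgeR Klrk1 was called at 0.71 ± 0.18 (adjusted p = 0.04998) among 3.61% of all genes, DESeq2 called Il2rg (adjusted p = 0.0446) among 6.04%, and voom called all 4 genes among 34.2%. Il2rg was also lower than around CaP, by 0.61 ± 0.25 in log2 (edgeR adjusted p = 0.520). ACPC-NP against CaP and CaP against PCL had medians of 0.11 and 0.05. Ly49s3, a lectin-like receptor at a mean of 0.299 CPM around CaP and 0.0683 CPM around PCL, had the smallest p in the last of these (edgeR adjusted p = 1.00).

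Over time, 43 of 63 wider genes were above 0 around PCL (50.6% of all genes) with a median of 0.19, and 8 were higher at an unadjusted p under 0.05 (5.97% of all genes). Tbx21, the factor T-bet that drives granule genes, stood at 7.74 ± 0.759 CPM at week 6 against 4.22 ± 1.87 CPM at week 2 (0.87 ± 0.30, edgeR adjusted p = 0.432), and Il2rb at 19.8 ± 1.37 against 12.5 ± 2.98 CPM (0.66 ± 0.24, edgeR adjusted p = 0.443). Around ACPC-NP 28 of 63 were above 0 (45.2% of all genes) with a median of -0.13. Prdm1 differed there by -1.38 ± 0.33 and Id2 by -1.53 ± 0.42 (edgeR adjusted p = 0.0870 and 0.0983), or -0.83 and -0.45 without replicate 3 of week 2, while the granule release genes Unc13d and Rab27a were at 0.38 ± 0.15 and 0.54 ± 0.23 (edgeR adjusted p = 0.200 and 0.211). Around CaP 29 of 63 were above 0 (47% of all genes) with a median of -0.03. Averaged over scaffolds, Ly49s6 was at 0.96 ± 0.30 and Ctsw, the lymphocyte protease cathepsin W, at 0.41 ± 0.15 (edgeR adjusted p = 0.167 and 0.238), with Prdm1 at -0.44 ± 0.19 and Id2 at -0.52 ± 0.24 (edgeR adjusted p = 0.301 and 0.333), or -0.25 and -0.16 without replicate 3 of ACPC-NP at week 2.

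In the interactions the wider genes with the smallest p were Il2rg and Prdm1. For ACPC-NP minus PCL they changed by -1.28 ± 0.35 and -1.51 ± 0.46 (edgeR adjusted p = 0.278 for both), and for ACPC-NP minus CaP by -1.07 ± 0.35 and -1.31 ± 0.46 (edgeR adjusted p = 0.267 and 0.279). Without replicate 3 of ACPC-NP at week 2 the Prdm1 values were -0.96 and -0.78. Faslg changed by -1.04 ± 0.47 for CaP minus PCL (edgeR adjusted p = 1.00). Over the 63 genes the medians were -0.45, -0.11 and -0.23 in these 3 interactions, against -0.05, -0.02 and -0.02 for all genes.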

How the data were processed

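RNA was measured by bulk mRNA sequencing in 18 libraries, 3 for each of 6 groups of scaffold and week. Per the submitters' processing notes the tools were bcl2fastq 2.20.0, STAR 2.7.9a, Subread 2.0.1 and featureCounts, with the build Rnor_6.0; the annotation, strandedness and filters: not given in the sources used here. Per gene symbol the authors deposited raw read counts. They also deposited normalised values, of unit signal: each is the count divided by 1 size factor per library, and these were used only as a check. Of 17337 symbols 16946 matched a RefSeq symbol or synonym (GRCr8).

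Counts were tested with edgeR 4.0.16 in R 4.3.3: filterByExpr (minimum count 10, minimum total 15), TMM, 1 term per group over all libraries, robust quasi-likelihood fit, Benjamini-Hochberg adjustment over 11814 genes holding 99.98% of counts, threshold 0.05. Log2 CPM used a prior count of 2. The scripts were tested on simulated data. The biological coefficient of variation was 26%, and counting error is large for genes of few counts such as Gzma and Klrb1a. No 2 libraries of a group were duplicates (lowest chi-square per degree of freedom 31.9). Alternatives were DESeq2 1.42.0, voom with quality weights (limma 3.58.1), DESeq2's size factors in edgeR, no filter, only the groups compared, a replicate block, and each library left out; medians of lists with a library left out were added after seeing the data.

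All 8 members are named. Their differences are given where ranges of 2 groups did not overlap or, for interactions and the mean over scaffolds, where the unadjusted p was under 0.05, and elsewhere as context. Of the wider genes, up to 2 per direction and comparison with the smallest unadjusted p under 0.05 are named. The members and lists were chosen with earlier results of these data known. T cell, neutrophil, B cell, plasmacytoid dendritic cell, osteoblast and immediate early lists are reported for some results, and not in every comparison.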

Additional observations from a re-analysis of the deposited data

Results flagged for a closer look

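Gzma, the granzyme A gene, went opposite ways between the weeks. At week 2 every ACPC-NP library was above every PCL library, and at week 6 every one was below. The change in the ACPC-NP minus PCL difference was -3.80 on the log2 scale (edgeR adjusted p = 0.278), so it did not pass the threshold over all genes. The gene was flagged because its ranges were separate in opposite directions at week 2 and week 6. That all 3 libraries of each group show it therefore follows from the rule and is no further support. Its counts were 7 to 76 per library over the series. Without replicate 3 of ACPC-NP at week 2 it was -3.14 (edgeR adjusted p = 0.331), and over 18 alternatives it ran from -4.16 to -3.14, with adjusted p from 0.000254 to 0.554 and 4 of the 18 past the threshold.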

How the results depend on the processing

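With edgeR 0 members were called in all 13 comparisons, also with DESeq2's size factors, no filter, or the groups compared alone (the last could not be run for the mean over scaffolds, which uses all groups). The replicate block gave 0 members called in every comparison, though in ACPC-NP against PCL at week 6 it raised the genes called from 0 to 427 (3.61%), Klrk1 among them. Same-numbered libraries of different groups deviated together (r over 0.1) in 18 of 45 pairs and differently numbered ones in 26 of 90, and 7 of 18 libraries correlated best with their own number. Paired libraries need not all pass 0.1, so these values cannot decide whether the numbers pair the libraries. The main fit used no pairing. Other settings called more members, and more of all genes, whose share is given beside each. In ACPC-NP against PCL at week 2 the count was 3 with DESeq2 (4.32%), 2 with voom (2.38%) and 0 to 3 with 1 library left out, with 3 reached without ACPC-NP replicate 1 (7.55%) or replicate 2 (3.22%). In ACPC-NP against CaP at week 2 it was 1 with DESeq2 (4.07%) and 0 to 1 with a library left out (Ncr1, without ACPC-NP replicate 1, 7.71%). In ACPC-NP against PCL at week 6 it was 1 with DESeq2 (6.04%), 2 with voom (34.2%) and 0 to 1 with a library left out (Nkg7, without PCL replicate 1, 15%). In week 6 against week 2 it was 1 with DESeq2 (5.45%), 1 with voom (11.4%) and 0 to 2 with a library left out around ACPC-NP (2, Ncr1 and Gzma, without week 2 replicate 1, 7.62%), 2 with DESeq2 (0.198%) and 2 with voom (14.7%) around PCL, and 2 with voom (13.7%) averaged over scaffolds. In the ACPC-NP minus PCL interaction it was 2 with DESeq2 (0.889%), 4 with voom (16.3%) and 0 to 3 with a library left out (3 without ACPC-NP week 2 replicate 1, 1.33%, and 1, Gzma, without PCL week 6 replicate 1, 0.533%). The causes were not tested. Of the other values under an alternative, none changed sign among the members' differences named by the rule. The T cell median for ACPC-NP against PCL at week 2 was 0.38, 1.14 and 0.42 without PCL replicates 1, 2 and 3. Among the 8 members low counts limit Gzma and Klrb1a most.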

Other observations

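Some receptors of the Ly49 family, lectin-like receptors of NK cells that differ in number between rat strains, had few counts in some libraries and more in others. Others did not, and Ly49si1 had 35 to 113 counts in every library. The 3 genes below were chosen after their values were seen. Ly49i9 had 11 to 30 counts in 7 libraries and 0 to 1 in the other 11. The 7 were replicates 1 and 2 of ACPC-NP at week 2, replicate 1 of ACPC-NP at week 6, replicates 2 and 3 of CaP at week 2, replicate 1 of CaP at week 6 and replicate 3 of PCL at week 2. Klra2 had 13 to 238 counts in the same 7 libraries and 1 to 9 in the others. Ly49s3 had 3 to 16 and 1 to 5, which overlap. Every group but PCL at week 6 held at least 1 of the 7. How these closely related genes shared reads, and whether the libraries came from different strains or animals, was not tested.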
